A study of Homo sapiens with 11 samples.

Results

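Matrix proteases, their inhibitors and the lysyl oxidases were examined in human cardiomyocytes kept in culture for up to 113 days. The group held every gene symbol in the count table of the families MMP (matrix metalloproteinases), TIMP (tissue inhibitors of metalloproteinases), ADAMTS (secreted metalloproteinases with thrombospondin repeats), ADAMTSL (ADAMTS-like proteins), and LOX with LOXL1 to LOXL4 (lysyl oxidases), apart from a single symbol that was left out and is not analysed here. The rule used names only and no measured value. It gave 42 of the 19990 genes of the table, of which 10 were MMP genes, 3 TIMP genes, 19 ADAMTS genes, 5 ADAMTSL genes and 5 lysyl oxidase genes. The starting cells were WTC11, a widely used line of human induced pluripotent stem cells, at passage 63. All wells belonged to 1 differentiation and shared its treatment, which was CHIR99021, an inhibitor of the kinase GSK3, followed by IWP2, an inhibitor of Wnt secretion, and then RPMI1640 medium with B27 and insulin on plates coated with Matrigel. Poly(A) RNA was sequenced from wells collected at Day 30 (4 wells), Day 60 (3 wells) and Day 113 (4 wells). The purity of the cardiomyocytes was measured by the submitters at an earlier day, and no cell sorting is described.

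The extracellular matrix of heart muscle is a network of fibrillar collagens, basement membrane, elastic fibres and proteoglycans, most of it made by fibroblasts. MMPs and ADAMTS proteases are zinc enzymes made as inactive precursors: MMPs cut collagens, gelatin and many other matrix proteins, while most ADAMTS enzymes cut proteoglycans such as versican, trim procollagens, or act on microfibrils. TIMPs bind to the active site of these enzymes and block it, ADAMTSL proteins lack the protease domain and bind to microfibrils, and lysyl oxidases are copper enzymes that cross-link collagen and elastin.

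The coding sequence of the zinc-binding site was read for each gene because it separates the proteases from the other members. The site was taken as 11 codons in the order histidine, glutamate, any 2, histidine, any 5 and histidine, and was searched in 1 coding transcript per gene of GENCODE v29 (GRCh38, the build named as hg38 in the submitters' processing notes). It was present in 10 of 10 MMP genes and 19 of 19 ADAMTS genes, and in 0 of 5 ADAMTSL, 0 of 3 TIMP and 0 of 5 lysyl oxidase genes. In all 10 MMP genes the site lay inside 1 exon, and in all 19 ADAMTS genes it was split over an exon junction. The eighth codon was glycine in 10 of 10 MMP and 14 of 19 ADAMTS genes, and asparagine in ADAMTS1, ADAMTS4, ADAMTS9 and ADAMTS15. The 33 bases of the site are given 5′ to 3′ on the coding strand for 7 proteases, the MMPs and ADAMTS enzymes with some of the largest or steadiest changes and the most abundant MMP, with the codons of the 3 histidines and the glutamate in capitals.
MMP1: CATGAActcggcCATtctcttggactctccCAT
MMP2: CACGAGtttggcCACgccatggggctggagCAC
MMP14: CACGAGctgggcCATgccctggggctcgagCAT
MMP15: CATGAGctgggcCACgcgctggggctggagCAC
ADAMTS5: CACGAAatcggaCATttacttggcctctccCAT
ADAMTS14: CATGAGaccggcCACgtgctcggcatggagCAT
ADAMTS19: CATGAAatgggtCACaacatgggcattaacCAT
On GRCh38 these sites lie at chr11:102795549-102795581 (minus strand, exon 5), chr16:55491827-55491859 (plus, exon 8), chr14:22843283-22843315 (plus, exon 5) and chr16:58040563-58040595 (plus, exon 5). The ADAMTS sites span chr21:26943525-26954748 (minus, exons 2 and 3), chr10:70732343-70733900 (plus, exons 7 and 8) and chr5:129596648-129620633 (plus, exons 8 and 9), introns included. All are coding.

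Promoters were available from the RefSeq table (GRCh38.p14) for 27 of the 42 genes. In the 250 bases before the start, the GC box (GGGCGG or its complement CCGCCC) was found in 23 of 27 members (85.2%), against 67.3% of 13692 genes of the count table and 46.2% of all 27305 genes with a promoter. The TATA box (TATAAA, both strands) was found in 3 of 27, ADAMTS10, ADAMTSL2 and MMP10, against 9.22% and 13.0%. The AP-1 motif (TGAGTCA, or TGACTCA on the other strand) was found in 0 of 27, against 4.59% and 5.19%. Not matched were ADAMTS1, ADAMTS4, ADAMTS5, ADAMTS8, ADAMTS9, ADAMTS15, ADAMTS16, LOXL2, MMP1, MMP2, MMP9, MMP16, MMP19, MMP25 and TIMP2. None of these motifs contains another, and a match describes the sequence only. The promoter bases before the annotated start are shown for MMP14, which was lowest at Day 60 and rose afterwards, and LOXL4, which fell, with GC boxes in capitals.
MMP14: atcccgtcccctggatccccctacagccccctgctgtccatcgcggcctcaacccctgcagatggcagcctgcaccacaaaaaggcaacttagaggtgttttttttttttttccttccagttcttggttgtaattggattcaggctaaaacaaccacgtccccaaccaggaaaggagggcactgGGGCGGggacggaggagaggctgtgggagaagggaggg
LOXL4: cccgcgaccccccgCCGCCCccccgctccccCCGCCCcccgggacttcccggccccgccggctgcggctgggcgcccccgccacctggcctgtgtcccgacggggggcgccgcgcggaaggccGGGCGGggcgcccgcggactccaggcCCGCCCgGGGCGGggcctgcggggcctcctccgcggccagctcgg
The MMP14 stretch is chr14:22836335-22836556 on the plus strand, 222 bases with 56.3% G or C and 1 GC box. The LOXL4 stretch is chr10:98268251-98268444 on the minus strand, 194 bases with 88.1% G or C and 5 GC boxes.

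The 11 libraries held 24071375 to 34546715 counts. No pair of wells within a day agreed to within sampling noise (chi-square per degree of freedom 11.4 to 84.0 between pairs). Levels are given as CPM, the counts per 1000000 of the library total scaled by TMM, in the order of the replicate numbers, with n = 4, 3 and 4 wells for Days 30, 60 and 113 throughout. Changes are log2 fold changes ± SE from edgeR's quasi-likelihood test, written log2 and the value in brackets, with p-values adjusted over all 19990 genes and a threshold of 0.05 for a call. The wells came from 1 differentiation, so these p-values measure only the spread between wells, and day and collection cannot be told apart. The counted table held no gene with fewer than 35 counts over all wells, and family members outside the table are not analysed here. A level of 0 CPM in a well allows up to 0.0856 to 0.120 CPM depending on the library (3 counts, counting error only). In whole wells, fewer cells of a type and less RNA per cell cannot be told apart either. Summed cardiomyocyte markers (10 of 10 genes measured, TNNT2 and MYH7 among them) were 33635 to 45348, 42388 to 48062 and 35922 to 39328 CPM at the 3 days. At Day 113 against Day 30, 2 of these 10 were called higher (TNNT2 and TNNI1) and 2 lower (ACTN2 and MYH7). The 2 higher were 1 without Day 30 replicate 1 or 3. Of all genes, 17.3% were called higher and 17.2% lower in that comparison. Summed fibroblast markers (10 of 10 measured) were 3359 to 7717, 2081 to 3584 and 5459.9 to 13092 CPM, with 6 higher and 2 lower at Day 113 against Day 30. All 10 endothelial markers were called higher at Day 113 than at either earlier day, where 12.9% of all genes were called higher against Day 60. Their sums were 79.9 to 119, 50.03 to 82.6 and 242 to 919.8 CPM, with the highest in Day 113 replicate 1. Smooth muscle and pericyte markers (7 of 8 measured, MYH11 not analysed here) summed to 833 to 1031, 807 to 956 and 1006 to 1581 CPM. Endoderm and epithelial markers (9 of 10 measured) went the other way, from 876 to 1741 through 427 to 561 to 81.8 to 215 CPM, with 8 of 9 called lower at Day 113 than at Day 30. Cartilage-like markers (6 of 6 measured, COL2A1 and SOX9 among them) summed to 685 to 885, 248 to 285 and 67.6 to 133 CPM. COL2A1 and COL11A1 were called lower at Day 113 than at Day 30 (1 of these 2 with robust dispersions). SOX9 was called lower at Day 60 than at Day 30 and higher at Day 113 than at Day 60. Epicardial markers (7 of 7 measured) summed to 185 to 229, 186 to 247 and 214 to 292 CPM, with 2 higher and 3 lower at Day 113 against Day 30. Macrophage markers (3 of 8 measured) summed to at most 4.94 CPM in any well. The part of these other cells in the changes below was not tested.

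Exons of 20 of the 42 genes overlap those of another annotated gene. In 12 of them the other gene is in the table (ADAMTSL4, LOXL3, ADAMTS9, LOX, ADAMTS19, LOXL2, MMP19, LOXL1, TIMP2, MMP25, MMP24 and MMP9), for 7 of them an antisense RNA such as LOXL1-AS1 or ADAMTS19-AS1. MMP1, MMP2, MMP16, LOXL4, ADAMTS3, ADAMTS17, ADAMTS18 and ADAMTSL5 overlap only genes outside the table. Whether the counting used strand is not given in the sources used here, so reads from such neighbours cannot be told apart. The values of these 20 genes are uncertain to that extent. Gene positions are those of GENCODE v29 on GRCh38.

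Compared per 1000 bases of exon, the membrane protease MMP15 had the highest level of the 42 genes at every day, at 169, 136 and 167 CPM per 1000 bases for Days 30, 60 and 113. The inhibitor TIMP3 came second on that scale at 84.4, 87.6 and 103. At Day 30 the next were the cross-linking enzyme LOXL2 (46.6), TIMP1 (44.9), MMP14 (30.9), TIMP2 (22.3) and MMP2 (21.2), and at the low end stood ADAMTS17 (0.102) and MMP19 (0.0636). In plain CPM, MMP15 supplied 27.7% of all the counts of the 42 genes at Day 30, and TIMP3 14.4%. The summed CPM of the 3 TIMP genes was 568 to 605 at Day 30, 607 to 647 at Day 60 and 658 to 862 at Day 113, with no overlap between days. The highest Day 30 well (605.4 CPM) and the lowest Day 60 well (606.8 CPM) were nearly level. The 10 MMP genes summed to 992 to 1076, 618 to 822 and 903 to 1247 CPM, lowest at Day 60, with Day 113 overlapping Day 30. The 5 lysyl oxidases summed to 333 to 501, 260.4 to 348 and 239.8 to 451 CPM, and the days overlapped.

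**Figure D1:**
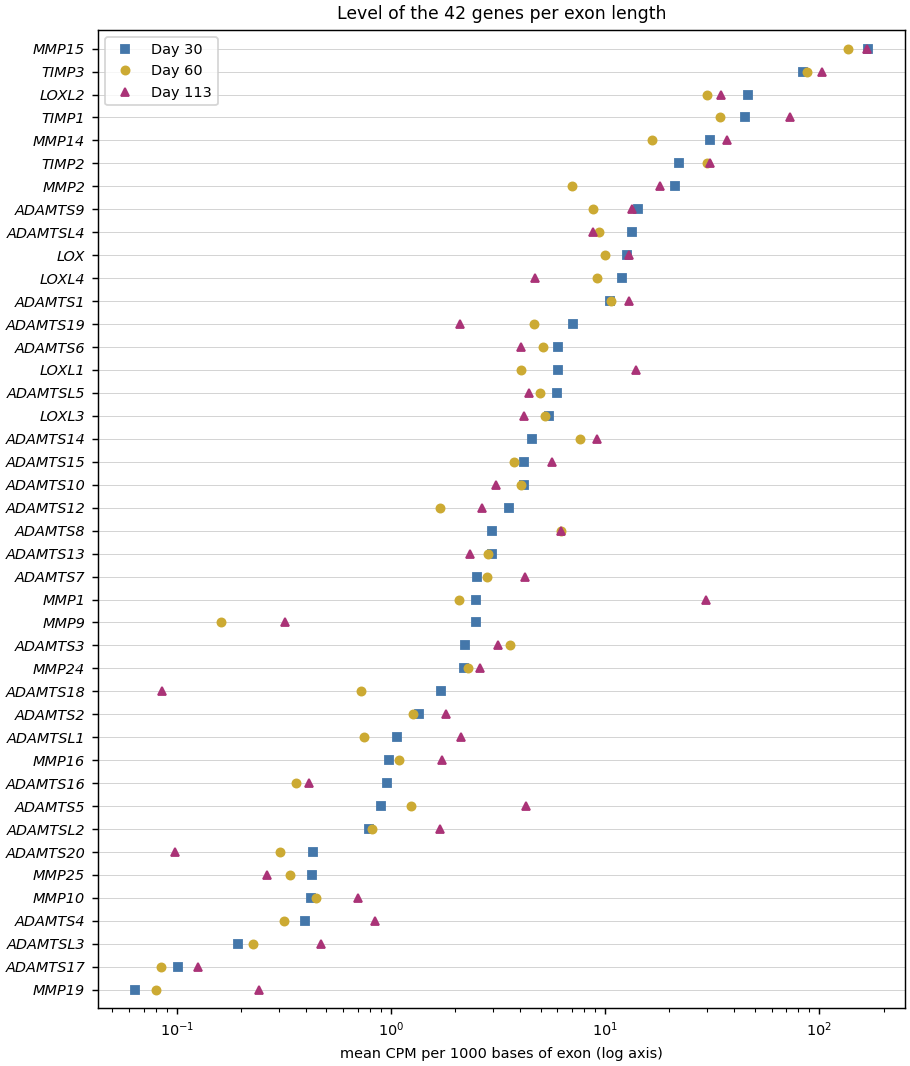
Mean level of each of the 42 genes at Day 30 (squares), Day 60 (circles) and Day 113 (triangles), in CPM per 1000 bases of exon on a log axis, ordered by Day 30. MMP15 and TIMP3 are at the top at all 3 days, MMP1 moves from 2.51 at Day 30 to 29.7 at Day 113, and ADAMTS18 from 1.71 to 0.0857.

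Between Day 30 and Day 60 the genes that fell included both gelatinases, MMP14, LOXL1, ADAMTS9, ADAMTS12, ADAMTS19, ADAMTSL1 and ADAMTSL4, and those that rose were TIMP2, ADAMTS3, ADAMTS8 and ADAMTS14. Between Day 60 and Day 113 most of those that changed rose, MMP1, MMP2, MMP14, TIMP1, LOXL1 and ADAMTS5 among them, and the 3 that fell were LOXL4, ADAMTS18 and ADAMTS19. At Day 60 against Day 30, 4 of 42 were called higher and 9 lower (13 in all), where 4.39% of all genes were called higher, 5.91% lower and 10.3% in either direction. The median log2 fold change of the members was -0.27, against -0.01 for all genes. This count moved with single wells: 5 were called with Day 30 replicate 2 left out, 8 with Day 30 replicate 3, 6 with Day 60 replicate 1 and 4 with Day 60 replicate 3 left out. Those lower were then 2, 5, 4 and 1 in the same order, and those higher were 2 without Day 30 replicate 1, Day 30 replicate 4 or Day 60 replicate 1. At Day 113 against Day 60, 12 were higher and 3 lower (15 in all), against 12.9%, 11.1% and 24.0% of all genes, with a median of 0.33 for the members and 0.0016 for all genes. At Day 113 against Day 30, 15 were higher and 9 lower (24 in all), against 17.3%, 17.2% and 34.5% of all genes, with medians of 0.28 and -0.02. A change over the 3 days was called for 28 of 42 members and 37.1% of all genes. The change of the second interval differed from that of the first, by a test of that difference, in 8 of 42 members and 9.34% of all genes, and in all 8 (MMP1, MMP2, MMP14, TIMP1, LOXL1, ADAMTS5, ADAMTS9 and ADAMTSL1) the later change was the more positive. Over all genes this test called 1868, of which 993 had the more positive later change (770 of 1916 under upper-quartile scaling). The second interval was the longer, and the test made no allowance for its length. The pairs of days share wells, so the 3 comparisons are not independent of each other.

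**Figure D2:**
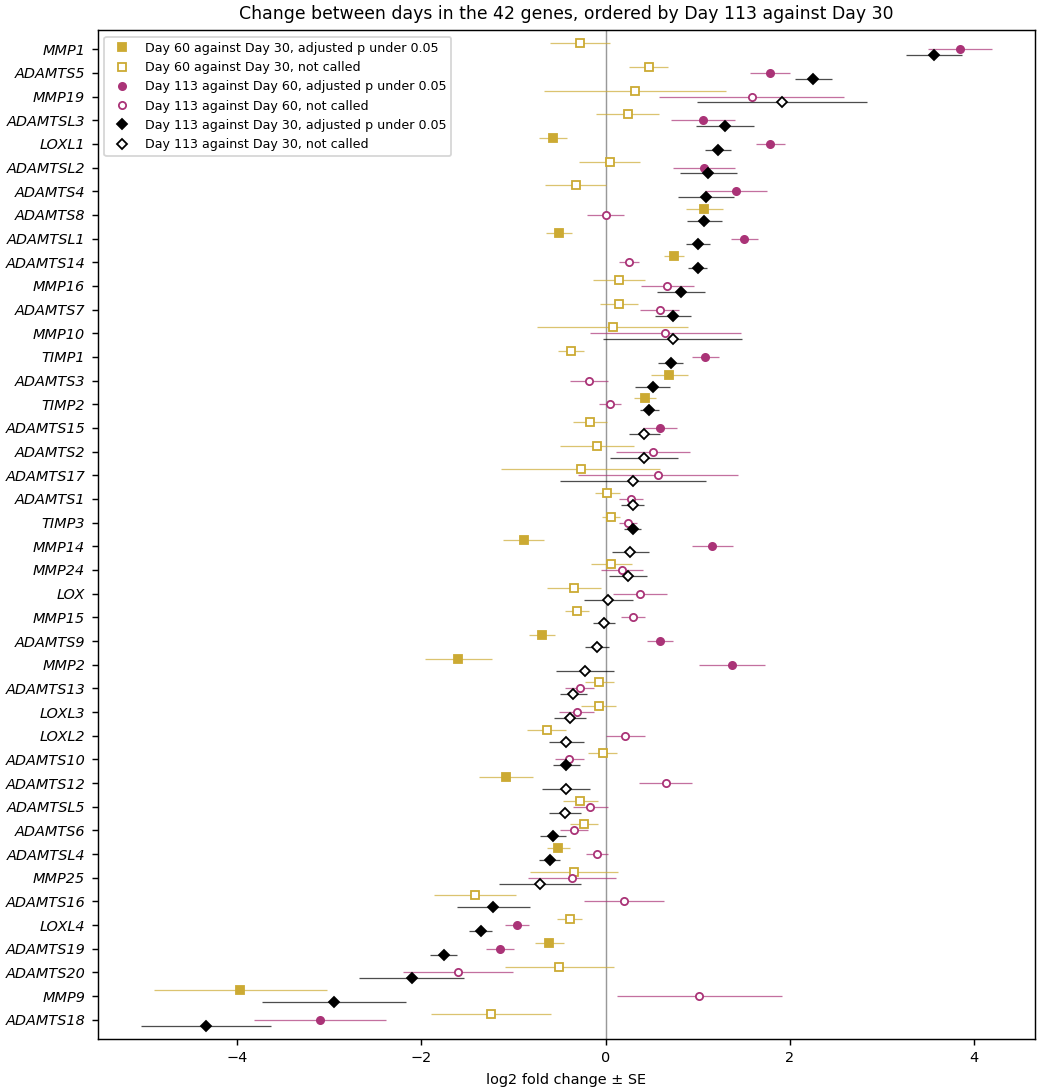
Log2 fold change ± SE of each gene at Day 60 against Day 30 (squares), Day 113 against Day 60 (circles) and Day 113 against Day 30 (diamonds), with filled symbols for an adjusted p under 0.05, ordered by Day 113 against Day 30. MMP1 is at the top with 3.56 and ADAMTS18 at the bottom with -4.34; MMP2, MMP14 and LOXL1 have filled symbols on both sides of 0.

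Among the secreted MMPs, MMP1, the interstitial collagenase that makes the first cut in fibrillar collagen, was low until Day 60 and far higher at Day 113. MMP1 (chr11:102789920-102798160, minus strand) measured 5.77, 4.203, 5.56 and 4.26 at Day 30, 2.46, 7.04 and 2.81 at Day 60 and 76.5, 63.02, 60.1 and 34.3 CPM at Day 113. Every Day 113 well was above every earlier well, while Days 30 and 60 overlapped. It rose 11.8-fold from Day 30 to Day 113 (log2 3.56 ± 0.30, adjusted p = 3.7e-07) and 14.4-fold from Day 60 (log2 3.85 ± 0.35, adjusted p = 5.1e-06). From Day 60 the log2 fold change was 4.47 without Day 60 replicate 2, the highest of that day. The first interval gave -0.28 ± 0.32 (adjusted p = 0.7), and the second interval exceeded the first by 4.13 ± 0.62 (adjusted p = 0.001, and 5.38 on the log2 scale without Day 60 replicate 2). MMP1 was highest in Day 113 replicate 1, which also held the highest endothelial sum (919.8 CPM) and fibroblast sum (13092 CPM), and the part of these cells in the rise was not tested. MMP1 was lowest in replicate 4, where these sums were lowest at 242 and 5459.9 CPM. The smooth muscle and pericyte sum and the library depth were also highest in replicate 1 and lowest in replicate 4. Between replicates 2 and 3 the order differed. MMP1 was higher in replicate 2, whereas the endothelial sum (407 and 458 CPM) and the fibroblast sum (6781 and 11315 CPM) were higher in replicate 3. The stromelysin MMP10 (chr11:102770503-102780628, minus strand) measured 0.229, 0.667, 1.35 and 0.721 at Day 30, 0.8298, 1.22 and 0.315 at Day 60 and 0.5196, 2.25, 1.997 and 0.1605 CPM at Day 113. It was never above 2.25 CPM and overlapped between all days (adjusted p = 0.5 at Day 113 against Day 30). MMP19 (chr12:55835433-55842966, minus strand), another secreted MMP, stood at 0.191, 0.5003, 0.428 and 0.0687 at Day 30, 0.862, 0.258 and 0 at Day 60 and 1.41, 1.39, 0.685 and 1.04 CPM at Day 113. Its Day 113 wells were above those of Day 30, without a call (log2 1.91 ± 0.92, adjusted p = 0.12), though it passed the threshold on leaving out Day 60 replicate 3 (adjusted p = 0.046) and with only the 2 days in the fit (adjusted p = 0.032).

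Both gelatinases, which degrade denatured collagen and basement membrane collagen, were lower at Day 60 than at Day 30, and MMP2 rose again by Day 113. MMP2 (chr16:55389700-55506691, plus strand), gelatinase A, measured 74.6, 174, 118 and 51.2 at Day 30, 44.2, 32.2 and 27.1 at Day 60 and 137, 68.6, 95.8 and 55.2 CPM at Day 113. All Day 60 wells were below all others, and Day 113 overlapped Day 30. It fell 3.03-fold in the first interval (log2 -1.60 ± 0.36, adjusted p = 0.0095) and rose 2.59-fold in the second (log2 1.37 ± 0.36, adjusted p = 0.011), a difference between intervals of 2.97 ± 0.67 (adjusted p = 0.012). The MMP2 fall was not called on leaving out Day 60 replicate 3 (adjusted p = 0.065) and with robust dispersions (adjusted p = 0.076). The rise of MMP2 was not called on leaving out Day 60 replicate 3 (adjusted p = 0.061) and with robust dispersions (adjusted p = 0.071). Its difference between intervals was not called on leaving out Day 60 replicate 3 (adjusted p = 0.083) and with robust dispersions (adjusted p = 0.076). MMP9 (chr20:46008908-46016561, plus strand), gelatinase B, measured 1.07, 11.4, 7.898 and 2.82 at Day 30, 0, 0.811 and 0.315 at Day 60 and 0.866, 1.35, 0.428 and 0.361 CPM at Day 113. The Day 30 wells were uneven, with replicates 2 and 3 at 11.4 and 7.898 CPM and replicates 1 and 4 below 3 CPM, and no later well passed 1.35 CPM. It was 15.6-fold lower at Day 60 (log2 -3.97 ± 0.94, adjusted p = 0.012) and 7.72-fold lower at Day 113 (log2 -2.95 ± 0.78, adjusted p = 0.0077) than at Day 30. The Day 60 call was lost on leaving out Day 30 replicate 2 (adjusted p = 0.054) or Day 60 replicate 3 (adjusted p = 0.064) and with limma-voom (adjusted p = 0.13). Its log2 fold change was -3.37 without Day 30 replicate 2, -3.35 or -5.16 without Day 60 replicate 1 or 2, and -4.78 with limma-voom. The second interval of MMP9 gave 1.02 ± 0.90 (adjusted p = 0.46). In Day 30 replicates 2 and 3 the fibroblast sum was also highest, at 7717 and 6803 CPM against 4516 and 3359 CPM in replicates 1 and 4. The endothelial sum was highest there too, at 119 and 114 CPM against 108 and 79.9 CPM. So was the low macrophage sum (3 of 8 markers measured), at 4.94 and 4.57 CPM against 3.74 and 2.44 CPM. The part of these cells in the MMP9 values was not tested.

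Of the membrane-type MMPs, which act at the cell surface, MMP14, known to activate MMP2 together with TIMP2, also fell and then rose. MMP14 (chr14:22836557-22849027, plus strand) measured 123, 179, 154 and 95.8 at Day 30, 80.1, 93.5 and 49.5 at Day 60 and 193, 175, 173 and 123 CPM at Day 113. Its Day 60 wells lay below all wells of the other days, and Day 113 overlapped Day 30. It fell 1.85-fold (log2 -0.89 ± 0.22, adjusted p = 0.017) and then rose 2.23-fold (log2 1.16 ± 0.22, adjusted p = 0.0016), a difference between intervals of 2.05 ± 0.41 (adjusted p = 0.006). The MMP14 fall was not called on leaving out Day 30 replicate 2 or 3 (adjusted p = 0.07 or 0.051) or Day 60 replicate 1 or 3 (adjusted p = 0.05 or 0.1) and with robust dispersions (adjusted p = 0.053). MMP15 (chr16:58025566-58046901, plus strand), a membrane-type enzyme and the most abundant member per exon length, measured 796, 684, 680.1 and 829 at Day 30, 669, 620.2 and 515 at Day 60 and 669.5, 908, 707 and 662 CPM at Day 113. The Day 60 wells were all below those of Day 30, but no pair of days was called (adjusted p = 0.16, 0.12 and 0.92 for Day 60 against Day 30, Day 113 against Day 60 and Day 113 against Day 30). MMP16 measured 12.1, 11.2, 11.4 and 12.8 at Day 30, 15.1, 12.2 and 12.2 at Day 60 and 36.5, 10.4, 18.9 and 17.8 CPM at Day 113. Day 113 replicate 1 was far above the rest and replicate 2 was below every Day 30 well. The call at Day 113 against Day 30 (log2 0.82 ± 0.26, adjusted p = 0.024) was made with all 11 wells. For MMP16 the call was lost on leaving out Day 30 replicate 1, 2 or 3 (adjusted p = 0.053, 0.058 or 0.058) or Day 113 replicate 1 (adjusted p = 0.11) and with limma-voom (adjusted p = 0.057). Its second interval, at 0.67 ± 0.29 (adjusted p = 0.1), passed the threshold on leaving out Day 113 replicate 2 (adjusted p = 0.011). MMP24 stayed between 7.76 and 15.97 CPM and the lipid-anchored MMP25 between 0.656 and 2.73 CPM over all 11 wells, with no call.

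**Figure D3:**
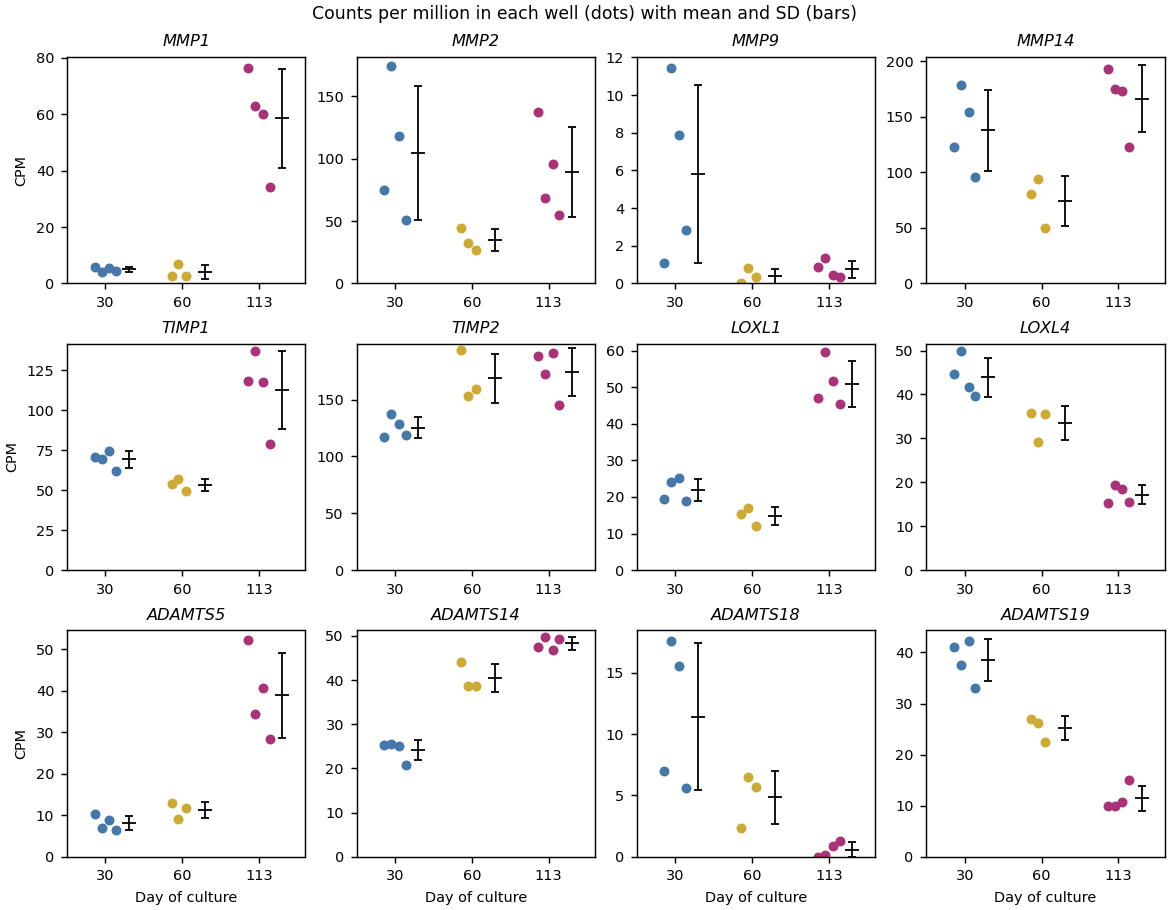
Level in each well (dots, CPM) by day of culture with the mean and SD (bars, n = 4, 3 and 4) for 12 of the genes; each panel starts at 0 and has its own scale. MMP1 and ADAMTS5 are highest at Day 113, MMP2 and MMP14 are lowest at Day 60, TIMP2 and ADAMTS14 are already higher at Day 60, and LOXL4, ADAMTS18 and ADAMTS19 are lowest at Day 113.

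All 3 TIMP genes were higher at Day 113 than at Day 30, by 1.23- to 1.63-fold, where 17.3% of all genes were called higher. TIMP1 (chrX:47582313-47586789, plus strand), a soluble inhibitor of most secreted MMPs, measured 70.6, 69.6, 74.8 and 61.8 at Day 30, 53.6, 56.97 and 49.4 at Day 60 and 118, 137, 117 and 78.9 CPM at Day 113. The Day 60 wells were below all others and the Day 113 wells above all others. TIMP1 rose 2.12-fold from Day 60 (log2 1.08 ± 0.15, adjusted p = 0.00012) and 1.63-fold from Day 30 (log2 0.71 ± 0.13, adjusted p = 0.00071). The 2 intervals of TIMP1 differed by 1.46 ± 0.27 (adjusted p = 0.0035). Its first interval (log2 -0.38 ± 0.15, adjusted p = 0.12) was not called in the fit of all wells with day as the only term. That interval passed the threshold on leaving out Day 113 replicate 4 (adjusted p = 0.029) and with only the 2 days in the fit (adjusted p = 0.018). TIMP2 (chr17:78852977-78925387, minus strand), which also takes part in the activation of MMP2, measured 117, 138, 128 and 119 at Day 30, 194, 153 and 159 at Day 60 and 188, 173, 191 and 145 CPM at Day 113. Days 60 and 113 overlapped and both lay above Day 30. It rose in the first interval (log2 0.43 ± 0.12, adjusted p = 0.025) and the total was 1.39-fold (log2 0.48 ± 0.11, adjusted p = 0.0027), while the second interval gave 0.048 ± 0.12. The TIMP2 call at Day 60 was lost on leaving out Day 30 replicate 1, 3 or 4 (adjusted p = 0.078, 0.056 or 0.067) or Day 60 replicate 1 (adjusted p = 0.11). TIMP3 (chr22:32801701-32863043, plus strand), which binds to the matrix and also inhibits ADAMTS enzymes, measured 380.2, 398, 379 and 396 at Day 30, 399.8, 412 and 398 at Day 60 and 473, 443, 554 and 433 CPM at Day 113. Its Day 113 wells were above all earlier wells, with a change of 1.23-fold from Day 30 (log2 0.29 ± 0.09, adjusted p = 0.019). That call was lost on leaving out Day 30 replicate 1 (adjusted p = 0.052) or Day 113 replicate 3 (adjusted p = 0.077). The second interval of TIMP3 (log2 0.24 ± 0.097, adjusted p = 0.088) passed the threshold on leaving out Day 113 replicate 2 (adjusted p = 0.042).

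The proteoglycan-cleaving ADAMTS enzymes (ADAMTS1, 4, 5, 8, 9, 15 and 20), whose known substrates include versican and aggrecan, changed in different directions. ADAMTS5 (chr21:26917912-26966513, minus strand), a major aggrecan- and versican-cleaving enzyme, measured 10.3, 7.04, 8.89 and 6.49 at Day 30, 12.9, 9.21 and 11.7 at Day 60 and 52.3, 34.3, 40.7 and 28.4 CPM at Day 113. Every Day 113 well was above every earlier well. It rose 4.76-fold from Day 30 (log2 2.25 ± 0.20, adjusted p = 5.9e-07) and 3.45-fold from Day 60 (log2 1.79 ± 0.22, adjusted p = 4.4e-05). The second interval exceeded the first by 1.32 ± 0.38 (adjusted p = 0.042). For ADAMTS5 that call was lost on leaving out Day 30 replicate 1, 2 or 3 (adjusted p = 0.068, 0.056 or 0.071), Day 60 replicate 1, 2 or 3 (adjusted p = 0.084, 0.16 or 0.12) or Day 113 replicate 3 (adjusted p = 0.063), with upper-quartile scaling (adjusted p = 0.054) and with limma-voom (adjusted p = 0.083). ADAMTS4 (chr1:161184308-161199056, minus strand), the other enzyme best known for cutting aggrecan, measured 4.32, 4.503, 3.75 and 3.81 at Day 30, 1.5001, 4.79 and 3.53 at Day 60 and 10.5, 10.8, 7.87 and 5.78 CPM at Day 113. Its Day 113 wells were likewise all above the earlier ones (log2 1.09 ± 0.30, adjusted p = 0.01 against Day 30 and log2 1.42 ± 0.34, adjusted p = 0.0064 against Day 60). ADAMTS8 (chr11:130404925-130428993, minus strand) measured 16.4, 13.8, 12.4 and 11.2 at Day 30, 33.6, 33.9 and 17.4 at Day 60 and 31.4, 28.8, 25.4 and 27.7 CPM at Day 113, with Day 60 replicate 3 low among the Day 60 wells. Both later days lay above Day 30, by 2.102-fold at Day 60 (log2 1.07 ± 0.20, adjusted p = 0.0028) and 2.102-fold at Day 113 (log2 1.07 ± 0.19, adjusted p = 0.00038).

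ADAMTS9 (chr3:64515654-64688000, minus strand), an enzyme that cuts versican and has a role in the development of heart valves, dipped at Day 60. It measured 153, 137, 142 and 176 at Day 30, 86.8, 109 and 87.2 at Day 60 and 180.1, 127, 141 and 120.2 CPM at Day 113. The Day 60 wells were below all others and Days 30 and 113 overlapped. It fell 1.61-fold (log2 -0.69 ± 0.14, adjusted p = 0.0051) and rose 1.51-fold (log2 0.59 ± 0.14, adjusted p = 0.0062). The intervals differed by 1.28 ± 0.25 (adjusted p = 0.0058), which was not called on leaving out Day 60 replicate 1 or 3 (adjusted p = 0.055 or 0.051). ADAMTS15 (chr11:130448974-130476641, plus strand) measured 21.01, 26.6, 21.3 and 26.6 at Day 30, 26.5, 19.1 and 18.2 at Day 60 and 39.3, 29.02, 36.6 and 22.9 CPM at Day 113, with overlap between all days. The ADAMTS15 rise from Day 60 (log2 0.59 ± 0.19, adjusted p = 0.032) was called with all 11 wells. For ADAMTS15 the call was lost on leaving out Day 60 replicate 2 or 3 (adjusted p = 0.11 or 0.14) or Day 113 replicate 1 or 3 (adjusted p = 0.077 or 0.082) and with only the 2 days in the fit (adjusted p = 0.064). Against Day 30 it gave 0.42 ± 0.17 (adjusted p = 0.069), past the threshold on leaving out Day 60 replicate 1 (adjusted p = 0.046) or Day 113 replicate 4 (adjusted p = 0.017). ADAMTS20 was low, at 1.84 to 4.71 CPM at Day 30, 1.47 to 3.09 at Day 60 and 0.187 to 1.33 at Day 113. It had 5 counts each in Day 113 replicates 2 and 4. It fell 4.31-fold from Day 30 to Day 113 (log2 -2.11 ± 0.57, adjusted p = 0.0091). ADAMTS1, an enzyme that cuts versican during the formation of heart trabeculae, stayed at 68.7 to 79.9, 65.3 to 89.01 and 81.7 to 116 CPM with no call (adjusted p = 0.078 at Day 113 against Day 30).

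The procollagen N-proteinases ADAMTS2, ADAMTS3 and ADAMTS14 remove the amino-terminal propeptide of fibrillar procollagens. ADAMTS14 (chr10:70672803-70762441, plus strand) measured 25.3, 25.6, 25.01 and 20.7 at Day 30, 44.04, 38.7 and 38.6 at Day 60 and 47.4, 49.8, 46.8 and 49.3 CPM at Day 113. The 3 days did not overlap and increased in order, although Day 30 replicate 4 was below its 3 neighbours. It rose 1.68-fold by Day 60 (log2 0.74 ± 0.11, adjusted p = 0.00041) and 2.001-fold by Day 113 (log2 1.00 ± 0.10, adjusted p = 2.1e-06). The second interval alone was not called (log2 0.26 ± 0.11, adjusted p = 0.1). ADAMTS3 (chr4:72280969-72569386, minus strand), which also processes the lymphatic growth factor VEGFC, measured 14.6, 13.5, 20.4 and 15.4 at Day 30, 28.7, 22.7 and 26.1 at Day 60 and 28.1, 14.7, 20.7 and 27.7 CPM at Day 113. Day 60 lay above Day 30, and Day 113 replicate 2 lay within the Day 30 range. The ADAMTS3 call at Day 60 (log2 0.69 ± 0.20, adjusted p = 0.04) was made with all 11 wells. For ADAMTS3 the call was lost on leaving out Day 30 replicate 1, 2 or 4 (adjusted p = 0.1, 0.11 or 0.085) or Day 60 replicate 1, 2 or 3 (adjusted p = 0.14, 0.052 or 0.1). The call at Day 113 against Day 30 (log2 0.51 ± 0.19, adjusted p = 0.048) was made with all 11 wells. For ADAMTS3 the call was lost on leaving out Day 30 replicate 1, 2 or 4 (adjusted p = 0.12, 0.12 or 0.097), Day 60 replicate 2 or 3 (adjusted p = 0.055 or 0.053) or Day 113 replicate 1, 3 or 4 (adjusted p = 0.13, 0.056 or 0.14), with upper-quartile scaling (adjusted p = 0.06), with limma-voom (adjusted p = 0.066) and with only the 2 days in the fit (adjusted p = 0.059). ADAMTS2 had no call and overlapped between all days, at 6.699 to 15.9, 9.35 to 14.5 and 7.61 to 28.6 CPM.

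ADAMTS7 and ADAMTS12, a related pair, are known to cut cartilage oligomeric matrix protein. ADAMTS7 (chr15:78759203-78811431, minus strand) measured 20.8, 19.4, 22.97 and 15.3 at Day 30, 24.4, 18.9 and 21.8 at Day 60 and 48.9, 29.5, 27.5 and 24.4 CPM at Day 113. Its Day 113 wells were above all Day 30 wells, with replicate 1 far above the rest, for a rise of 1.66-fold from Day 30 (log2 0.73 ± 0.19, adjusted p = 0.0079). The lowest Day 113 well (24.43 CPM) was level with the highest Day 60 well (24.42 CPM). The second interval alone (log2 0.59 ± 0.21, adjusted p = 0.055) passed the threshold on leaving out Day 113 replicate 3 or 4 (adjusted p = 0.049 or 0.027) and with DESeq2 (adjusted p = 0.039). ADAMTS12 (chr5:33523535-33892192, minus strand) measured 31.97, 37.5, 31.7 and 38.7 at Day 30, 20.97, 16.7 and 12.1 at Day 60 and 45.3, 15.8, 25.3 and 17.3 CPM at Day 113. Day 60 lay below Day 30, and at Day 113 replicates 1 and 3 were above replicates 2 and 4. The ADAMTS12 fall at Day 60 (log2 -1.08 ± 0.29, adjusted p = 0.026) was called with all 11 wells. For ADAMTS12 the call was lost on leaving out Day 30 replicate 2 or 4 (adjusted p = 0.075 or 0.058) or Day 60 replicate 2 or 3 (adjusted p = 0.073 or 0.15) and with robust dispersions (adjusted p = 0.073). At Day 113 it was 0.65 ± 0.29 against Day 60 (adjusted p = 0.12), past the threshold on leaving out Day 113 replicate 2 (adjusted p = 0.039). It was -0.43 ± 0.26 against Day 30 (adjusted p = 0.23), past the threshold on leaving out Day 113 replicate 1 (adjusted p = 0.0027). ADAMTS13 (chr9:133414358-133459402, plus strand), which cuts von Willebrand factor, measured 19.6, 15.3, 16.8 and 16.4 at Day 30, 15.1, 16.99 and 16.5 at Day 60 and 12.4, 16.6, 13.2 and 10.99 CPM at Day 113. The days overlapped and none of the pairs was called; Day 113 against Day 30 (log2 -0.35 ± 0.15, adjusted p = 0.076) passed the threshold on leaving out Day 113 replicate 2 (adjusted p = 0.015).

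The remaining ADAMTS genes (ADAMTS6, 10, 16, 17, 18 and 19) held 5 of the 9 falls called at Day 113 against Day 30, where 17.2% of all genes were called lower. ADAMTS19 (chr5:129460265-129738683, plus strand), an enzyme expressed in developing heart valves, measured 41.1, 37.5, 42.3 and 33.1 at Day 30, 26.9, 26.1 and 22.5 at Day 60 and 9.99, 9.86, 10.7 and 15.1 CPM at Day 113. The 3 days did not overlap and decreased in order, and Day 113 replicate 4 was above its neighbours. It fell 3.38-fold from Day 30 to Day 113 (log2 -1.76 ± 0.15, adjusted p = 3.5e-07), with 2.21-fold in the second interval (log2 -1.15 ± 0.16, adjusted p = 0.00012). The ADAMTS19 fall of the first interval (log2 -0.61 ± 0.16, adjusted p = 0.019) was called with all 11 wells. For ADAMTS19 the call was lost on leaving out Day 30 replicate 1, 2 or 3 (adjusted p = 0.057, 0.052 or 0.063) or Day 60 replicate 1 or 3 (adjusted p = 0.06 or 0.12). ADAMTS18 (chr16:77247813-77435114, minus strand) measured 6.95, 17.6, 15.5 and 5.63 at Day 30, 2.36, 6.49 and 5.65 at Day 60 and 0, 0.1500, 0.856 and 1.28 CPM at Day 113. It was at most 1.28 CPM in every Day 113 well, and in Day 30 replicates 2 and 3 it was more than 2 times as high as in replicates 1 and 4. The fitted fall was 20.3-fold from Day 30 (log2 -4.34 ± 0.71, adjusted p = 0.0002) and 8.56-fold from Day 60 (log2 -3.10 ± 0.71, adjusted p = 0.0054). The log2 fold changes were -5.03 and -3.79 without Day 113 replicate 4, and -5.62 and -4.38 with limma-voom. Its first interval was -1.24 ± 0.65 (adjusted p = 0.28).

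ADAMTS16 (chr5:5140330-5320304, plus strand), the closest relative of ADAMTS18, measured 5.65, 5.14, 8.75 and 3.06 at Day 30, 1.24, 2.58 and 2.52 at Day 60 and 0.981, 3.299, 2.48 and 2.97 CPM at Day 113. Day 60 lay below Day 30, and Day 113 replicate 2 overlapped Day 30. The fall to Day 113 (log2 -1.22 ± 0.40, adjusted p = 0.025) was called with all 11 wells. For ADAMTS16 the call was lost on leaving out Day 30 replicate 1 or 3 (adjusted p = 0.052 or 0.11) or Day 113 replicate 1 (adjusted p = 0.053). The first interval of ADAMTS16 (log2 -1.42 ± 0.44, adjusted p = 0.052) passed the threshold on leaving out Day 30 replicate 4 (adjusted p = 0.031) or Day 113 replicate 1 or 2 (adjusted p = 0.018 or 0.045), with robust dispersions (adjusted p = 0.045), with DESeq2 (adjusted p = 0.016) and with only the 2 days in the fit (adjusted p = 0.02). ADAMTS6 and ADAMTS10 are a related pair that act on fibrillin microfibrils. ADAMTS6 (chr5:65148736-65481920, minus strand) measured 45.3, 57.6, 52.5 and 52.1 at Day 30, 38.5, 44.8 and 49.4 at Day 60 and 40.7, 26.5, 41.5 and 30.4 CPM at Day 113. All its Day 113 wells were below all Day 30 wells (log2 -0.57 ± 0.14, adjusted p = 0.0049). ADAMTS10 (chr19:8580242-8610735, minus strand) measured 28.03, 21.1, 27.8 and 18.2 at Day 30, 20.3, 24.9 and 24.6 at Day 60 and 19.5, 17.02, 18.2 and 16.01 CPM at Day 113. There, Day 113 lay below Day 60 and overlapped Day 30. The ADAMTS10 fall from Day 30 (log2 -0.43 ± 0.15, adjusted p = 0.036) was called with all 11 wells. For ADAMTS10 the call was lost on leaving out Day 30 replicate 1 or 3 (adjusted p = 0.13 or 0.12) or Day 113 replicate 2, 3 or 4 (adjusted p = 0.064, 0.059 or 0.09) and with limma-voom (adjusted p = 0.055). ADAMTS17 stayed at or under 1.48 CPM in every well, with no call.

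Of the ADAMTSL genes, which code for matrix proteins with no protease domain, 3 of 5 were higher and 1 lower at Day 113 than at Day 30. Of all genes, 17.3% were called higher and 17.2% lower in that comparison. ADAMTSL1 (chr9:17906563-18910950, plus strand) measured 13.3, 15.3, 13.95 and 15.5 at Day 30, 10.4, 10.3 and 9.94 at Day 60 and 32.96, 24.7, 31.2 and 27.3 CPM at Day 113. Day 60 lay below and Day 113 above all other wells. It rose 2.001-fold from Day 30 (log2 1.00 ± 0.13, adjusted p = 2e-05) and 2.84-fold from Day 60 (log2 1.51 ± 0.14, adjusted p = 6.8e-06). Its 2 intervals differed by 2.01 ± 0.26 (adjusted p = 0.00051). The ADAMTSL1 fall at Day 60 (log2 -0.51 ± 0.14, adjusted p = 0.029) was called with all 11 wells. For ADAMTSL1 the call was lost on leaving out Day 30 replicate 2, 3 or 4 (adjusted p = 0.095, 0.052 or 0.069) or Day 60 replicate 1, 2 or 3 (adjusted p = 0.09, 0.066 or 0.11) and with limma-voom (adjusted p = 0.067). ADAMTSL2 (chr9:133532164-133575519, plus strand), which binds fibrillin-1 and a latent TGF-beta binding protein, measured 4.09, 3.703, 4.15 and 2.82 at Day 30, 5.43, 4.13 and 1.86 at Day 60 and 10.5, 8.698, 7.56 and 5.09 CPM at Day 113. Its Day 113 wells were above Day 30 (log2 1.11 ± 0.31, adjusted p = 0.01) and overlapped Day 60. The ADAMTSL2 rise from Day 60 (log2 1.07 ± 0.34, adjusted p = 0.03) was called with all 11 wells. For ADAMTSL2 the call was lost on leaving out Day 60 replicate 2 or 3 (adjusted p = 0.062 or 0.11) or Day 113 replicate 1 or 2 (adjusted p = 0.074 or 0.054) and with only the 2 days in the fit (adjusted p = 0.06). ADAMTSL3 was low, at 1.34 to 2.502, 1.404 to 2.74 and 3.29 to 5.53 CPM, and its Day 113 wells were above all others (log2 1.30 ± 0.32, adjusted p = 0.0048 against Day 30). The ADAMTSL3 rise from Day 60 (log2 1.06 ± 0.35, adjusted p = 0.036) was called with all 11 wells. For ADAMTSL3 the call was lost on leaving out Day 60 replicate 1 or 2 (adjusted p = 0.15 or 0.061) or Day 113 replicate 3 or 4 (adjusted p = 0.088 or 0.08), with upper-quartile scaling (adjusted p = 0.051) and with only the 2 days in the fit (adjusted p = 0.053). ADAMTSL4 (chr1:150549369-150560937, plus strand), a microfibril-associated protein and the most abundant ADAMTSL gene per exon length, measured 79.8, 99.2, 92.1 and 74.6 at Day 30, 60.1, 62.3 and 59.3 at Day 60 and 52.6, 68.3, 56.1 and 50.3 CPM at Day 113. Days 60 and 113 overlapped and both lay below Day 30, for a fall of 1.52-fold by Day 113 (log2 -0.61 ± 0.11, adjusted p = 0.00063). The ADAMTSL4 call at Day 60 (log2 -0.51 ± 0.12, adjusted p = 0.013) was made with all 11 wells. For ADAMTSL4 the call was lost on leaving out Day 30 replicate 2 (adjusted p = 0.06) or Day 60 replicate 1 or 3 (adjusted p = 0.06 or 0.064). ADAMTSL5 had no call, at 17.7 to 25.4, 15.00 to 23.2 and 11.95 to 18.7 CPM.

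The 5 lysyl oxidases split in the fit of all 11 wells with day as the only term. LOXL1 was higher and LOXL4 lower at Day 113, and the other 3 had no call in that fit. Of all genes, 17.3% were called higher and 17.2% lower at Day 113 against Day 30. LOXL1 (chr15:73925989-73952137, plus strand), which cross-links elastin and is needed to maintain elastic fibres, measured 19.4, 23.98, 25.1 and 19.03 at Day 30, 15.3, 16.99 and 12.1 at Day 60 and 47.1, 59.6, 51.9 and 45.6 CPM at Day 113. Day 60 lay below and Day 113 above all other wells. It rose 2.33-fold from Day 30 (log2 1.22 ± 0.14, adjusted p = 6.5e-06) and 3.45-fold from Day 60 (log2 1.79 ± 0.16, adjusted p = 3.7e-06). Its 2 intervals differed by 2.36 ± 0.28 (adjusted p = 0.00034). The LOXL1 fall at Day 60 (log2 -0.57 ± 0.15, adjusted p = 0.024) was called with all 11 wells. For LOXL1 the call was lost on leaving out Day 30 replicate 2 or 3 (adjusted p = 0.085 or 0.079) or Day 60 replicate 1 or 3 (adjusted p = 0.072 or 0.14). LOXL4 (chr10:98247690-98268250, minus strand) measured 44.6, 49.8, 41.8 and 39.5 at Day 30, 35.9, 29.1 and 35.5 at Day 60 and 15.2, 19.5, 18.5 and 15.4 CPM at Day 113. The 3 days did not overlap and decreased in order. It fell 2.56-fold from Day 30 (log2 -1.36 ± 0.12, adjusted p = 7.3e-07), with 1.95-fold in the second interval (log2 -0.97 ± 0.13, adjusted p = 0.00011). The first interval of LOXL4 (log2 -0.39 ± 0.13, adjusted p = 0.072) passed the threshold on leaving out Day 113 replicate 2 (adjusted p = 0.044) and with only the 2 days in the fit (adjusted p = 0.039).

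LOXL2, which cross-links type IV collagen of basement membranes and is the most abundant lysyl oxidase per exon length, measured 272, 317, 274 and 200.4 at Day 30, 198, 162 and 153 at Day 60 and 270.3, 164, 231 and 126 CPM at Day 113. All Day 60 wells were below Day 30, and Day 113 replicates 1 and 3 were above replicates 2 and 4. The first interval (log2 -0.64 ± 0.21, adjusted p = 0.069) passed the threshold on leaving out Day 30 replicate 4 (adjusted p = 0.039) or Day 113 replicate 1 or 4 (adjusted p = 0.028 or 0.027) and with only the 2 days in the fit (adjusted p = 0.0058). LOXL2 at Day 113 against Day 30 (log2 -0.43 ± 0.19, adjusted p = 0.1) passed it on leaving out Day 113 replicate 1 (adjusted p = 0.014). LOX (chr5:122063195-122078360, minus strand), the founding member, measured 76.7, 83.2, 69.4 and 51.6 at Day 30, 68.97, 53.8 and 43.2 at Day 60 and 99.6, 46.8, 102 and 37.3 CPM at Day 113. The days overlapped, since at Day 113 replicates 1 and 3 were above and replicates 2 and 4 below every Day 30 well (log2 0.029 ± 0.27, adjusted p = 0.95 against Day 30). LOXL3 overlapped between all days, at 21.4 to 26.4, 16.3 to 29.8 and 15.8 to 22.9 CPM.

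Within Day 113, several genes were uneven between wells in the way the fibroblast, endothelial, and smooth muscle and pericyte sums were. The fibroblast sum was 13092, 6781, 11315 and 5459.9 CPM and COL1A1, the main fibrillar collagen gene, was 4576, 2059, 3978 and 1691 CPM in replicates 1 to 4. Of the 42 genes, 17 (40.5%) were higher in both replicates 1 and 3 than in both 2 and 4, LOX, LOXL2, MMP2, ADAMTS2 and ADAMTS12 among them. The share over all genes was 18.4%. MMP1, MMP15, TIMP1, ADAMTS14 and LOXL1 did not have this order. These examples were chosen after their values were seen. The endothelial sum (919.8, 407, 458 and 242 CPM) and the smooth muscle and pericyte sum (1581, 1249, 1324 and 1006 CPM) were also higher in both replicates 1 and 3 than in both 2 and 4. The cardiomyocyte sum, at 36949, 39328, 36839 and 35922 CPM, was not. Replicates 1 and 3 were also the deeper libraries, with 34546715 and 34436423 counts against 27036505 and 24071375. At Day 30, MMP2, MMP9, the fibroblast sum (4516, 7717, 6803 and 3359 CPM) and the endothelial sum (108, 119, 114 and 79.9 CPM) were highest in replicates 2 and 3. The low macrophage sum (3.74, 4.94, 4.57 and 2.44 CPM) was highest there too. The part of these differences in the comparisons between days was not tested.

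**Figure D4:**
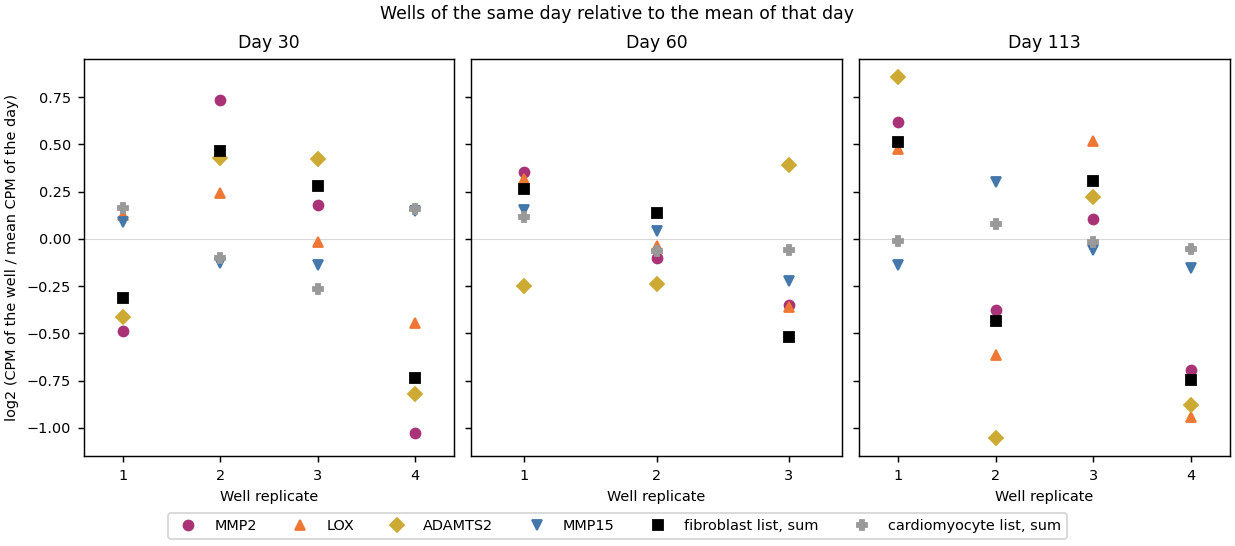
Each well's level relative to the mean of its day (log2 scale) for MMP2, LOX, ADAMTS2 and MMP15 and for the summed fibroblast and cardiomyocyte marker lists, in 1 panel per day. At Day 113 MMP2, LOX, ADAMTS2 and the fibroblast sum are above the mean in replicates 1 and 3 and below it in 2 and 4, whereas MMP15 is highest in replicate 2; the cardiomyocyte sum stays near the mean.

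The wider set of activators and regulators of these enzymes (24 genes, all measured) counted 8 lower and 1 higher at Day 60 against Day 30, where 5.91% and 4.39% of all genes were. At Day 113 they counted 9 higher and 1 lower against Day 60 (12.9% and 11.1% of all genes), and 7 higher and 6 lower against Day 30 (17.3% and 17.2%). The count of 9 was 5 without Day 60 replicate 3. The count of 1 was 2 with RLE size factors, upper-quartile scaling, the filter of 1 CPM or robust dispersions, or without Day 60 replicate 1 or Day 113 replicate 4. It was 3 without Day 113 replicate 1 or with DESeq2, and 4 with only the 2 days in the fit. TLL2 was the gene higher at Day 60. The TLL2 call was lost on leaving out Day 30 replicate 1, 3 or 4 (adjusted p = 0.094, 0.071 or 0.085) or Day 60 replicate 3 (adjusted p = 0.23), or with limma-voom (adjusted p = 0.059). At Day 113 the matricellular protein THBS2, which promotes the uptake of MMP2, measured 197, 51.3, 111 and 53.8 CPM against 6.76, 7.97, 8.79 and 3.85 CPM at Day 30, with no overlap (log2 3.91 ± 0.40, adjusted p = 2.1e-06). The serpin SERPINE2, an inhibitor of plasmin and its activators, measured 40.3, 67.05, 51.7 and 27.3 CPM at Day 30, 27.6, 15.6 and 18.5 at Day 60 and 139, 72.4, 105 and 64.8 at Day 113. It rose 2.05-fold from Day 30 (log2 1.03 ± 0.27, adjusted p = 0.0065). The fall of SERPINE2 at Day 60 (log2 -1.18 ± 0.30, adjusted p = 0.018) was called with all 11 wells. For SERPINE2 the call was lost on leaving out Day 30 replicate 2 (adjusted p = 0.073) or Day 60 replicate 2 or 3 (adjusted p = 0.082 or 0.095) and with robust dispersions (adjusted p = 0.089). TFPI2, a protease inhibitor of the matrix, rose 4.92-fold from Day 30 to Day 113 (log2 2.30 ± 0.41, adjusted p = 0.00048). The TFPI2 rise from Day 60 was called with all 11 wells, but not without any single Day 60 replicate or Day 113 replicate 3 or 4. That call was also lost with robust dispersions (adjusted p = 0.15), limma-voom (adjusted p = 0.08), DESeq2 or only the 2 days in the fit (both adjusted p = 0.065), or upper-quartile scaling (adjusted p = 0.052). A2M, which traps proteases of all classes, rose 2.63-fold (log2 1.40 ± 0.16, adjusted p = 7.4e-06). RECK, a membrane-anchored inhibitor of MMP2, MMP9 and MMP14, went the other way, with 23.6, 24.5, 31.00 and 25.7 CPM at Day 30 and 17.2, 12.00, 16.7 and 14.3 at Day 113 (log2 -0.80 ± 0.14, adjusted p = 0.00038). FURIN, the convertase that activates membrane-type MMPs and ADAMTS precursors, fell 1.51-fold from Day 30 (log2 -0.60 ± 0.12, adjusted p = 0.00083), and the sheddase ADAM10 fell 1.61-fold (log2 -0.69 ± 0.10, adjusted p = 7.6e-05). BSG, an inducer of MMPs, was not called (log2 -0.033 ± 0.093, adjusted p = 0.82).

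Among 24 substrates and cross-linked matrix genes measured (COMP not analysed here), 2 were higher and 7 lower at Day 60 against Day 30, where 4.39% and 5.91% of all genes were. At Day 113, 15 were higher and 0 lower against Day 60 (12.9% and 11.1% of all genes), and 13 higher and 5 lower against Day 30 (17.3% and 17.2%). The 0 is that of edgeR, and 0 were lower at an unadjusted p under 0.05, by DESeq2 or by limma-voom, and 1 with only the 2 days in the fit. The 7 lower at Day 60 were 4 without Day 60 replicate 3. The 2 higher, ELN and POSTN, were 1 without any single Day 30 replicate, Day 60 replicate 1 or 2 or Day 113 replicate 3, with robust dispersions or with limma-voom, and 4 without Day 113 replicate 1. ELN, the elastin gene, measured 0.191, 1.37, 3.75 and 0.2405 CPM at Day 30, 19.8, 18.5 and 14.4 at Day 60 and 54.5, 44.9, 89.3 and 73.3 at Day 113. Day 60 and Day 113 were both above Day 30 (log2 5.53 ± 0.54, adjusted p = 1.4e-06 at Day 113, and 6.72 without Day 30 replicate 3 and 6.37 with limma-voom). Of the other genes of the list known to take part in elastic fibres or microfibrils, EMILIN1 (log2 2.80 ± 0.32, adjusted p = 7.4e-06), FBLN5 (log2 2.00 ± 0.35, adjusted p = 0.00039) and FBN1 (log2 1.29 ± 0.26, adjusted p = 0.0011) were higher at Day 113 than at Day 30, and so were FBLN2 and EFEMP2 (log2 1.28 and 0.34). The EFEMP2 call was lost on leaving out Day 30 replicate 3 or 4 (adjusted p = 0.077 or 0.054) or Day 113 replicate 2 (adjusted p = 0.059). The fetal microfibril gene FBN2 was lower (log2 -1.20 ± 0.17, adjusted p = 5.3e-05), and so were FBLN1 (log2 -2.87 ± 0.33, adjusted p = 7e-06) and LTBP1, a latent TGF-beta binding protein (log2 -0.52 ± 0.11, adjusted p = 0.0017). These genes were grouped after their values were seen. The small proteoglycan BGN rose 14.5-fold (log2 3.85 ± 0.43, adjusted p = 5.6e-06).

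Of the ADAMTS substrates, versican (VCAN) measured 669.8, 526, 582 and 650.5 CPM at Day 30, 216, 228 and 232 at Day 60 and 372, 125, 234 and 174 at Day 113. It fell 2.68-fold from Day 30 to Day 113 (log2 -1.42 ± 0.23, adjusted p = 0.00019). Aggrecan (ACAN) had 0 counts in all Day 30 and Day 60 wells and 5.63, 0.8998, 0.998 and 0.883 CPM at Day 113. Against a floor of 3 counts per library it was at least 20.2-fold higher than at Day 30 and at least 20.96-fold higher than at Day 60. Without Day 113 replicate 1 it was at least 8.90-fold and 9.24-fold higher, and a floor covers counting error only. Fibronectin (FN1) measured 5234, 10350.0, 8855 and 3530.3 CPM at Day 30, 749, 591 and 535 at Day 60 and 3099, 819, 1786 and 985 at Day 113 (log2 -2.06 ± 0.37, adjusted p = 0.0005 against Day 30). The collagen genes COL1A1, COL1A2 and COL3A1 rose from Day 60 to Day 113 (1.93, 1.76 and 1.47 on the log2 scale; adjusted p = 0.00081, 0.0017 and 0.0031), and all 3 are also in the fibroblast list. Against Day 30, COL1A1 was called higher at Day 113, and COL1A2 and COL3A1 were not called. That COL1A1 call was lost on leaving out Day 30 replicate 1 or 4 or Day 113 replicate 1 or 3. It was also lost with robust dispersions (adjusted p = 0.11) and with DESeq2 (adjusted p = 0.061).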

How the data were processed

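RNA-seq counts per gene were deposited for 11 wells, 4 at Day 30, 3 at Day 60 and 4 at Day 113. Per the submitters' processing notes, the tools were STAR 2.5.3a and featureCounts 2.0.3 with the hg38 build; the annotation and the strand setting of the counting are not given in the sources used here. The authors also deposited TPM values, which were not used for any level. The gene lengths implied by count over TPM did not rank genes alike between libraries (median Spearman rho -0.0005 over 55 pairs of libraries and 14593 genes). The deposited counts were tested as they stand with edgeR 4.0.16 in R 4.3.3 (glmQLFit and glmQLFTest, TMM scaling, filterByExpr at a minimum count of 10, which removed no gene), with day as the only term and all 11 libraries in 1 fit. P-values were adjusted by Benjamini-Hochberg over 19990 genes, with a threshold of 0.05. The SE was taken from the log2 fold change and the F statistic. Levels are CPM on the TMM-scaled totals, which were 24071375 to 34546715 counts before scaling, and depth limits the genes at a few CPM most. The interval test contrasts the change from Day 60 to Day 113 with that from Day 30 to Day 60, without scaling for the longer second interval. Values in every well are given for members called in at least 1 pair of days with a mean of at least 5 CPM on a day, and for the most abundant member of each class. LOX is also given in every well, although it met neither condition. The members and gene lists were chosen with earlier results of these data known. Exon lengths and gene positions came from GENCODE v29 and promoters from RefSeq (GRCh38.p14). The alternatives were other scalings, no filter or a filter of 1 CPM in 3 libraries, DESeq2 1.42.0, limma-voom (limma 3.58.1), robust dispersions, fits of only the 2 days compared, a replicate block and leaving out each well. The fits were tested on simulated data.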

Additional observations from a re-analysis of the deposited data

Results flagged for a closer look

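In 8 genes the change from Day 60 to Day 113 differed from that between Day 30 and Day 60 by the edgeR test of that difference. The difference, on the log2 scale, was 4.13 for MMP1, 2.97 for MMP2, 2.36 for LOXL1, 2.05 for MMP14, 2.01 for ADAMTSL1, 1.46 for TIMP1, 1.32 for ADAMTS5 and 1.28 for ADAMTS9. Every one of these differences was positive, as were 993 of the 1868 called over all genes (770 of 1916 under upper-quartile scaling).

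A single well stood far from the other 3 of its day in 2 of the 64 groups of 4 wells examined, where chance gives about 1 in 20. ADAMTS19 measured 15.1 CPM in Day 113 replicate 4, above the other wells of that day. ADAMTS14 measured 20.7 CPM in Day 30 replicate 4, below the other wells of that day.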

How the results depend on the processing

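Of 49 called changes of the 32 genes described well by well (LOX not counted), 31 kept their call in all 20 alternatives and 0 reversed. Leaving out 1 well at a time, members called ranged over 4 to 15 at Day 60 against Day 30 (13 with all wells), 12 to 17 at Day 113 against Day 60, 19 to 26 at Day 113 against Day 30, 23 to 29 for any change and 6 to 9 for the difference between intervals. Over the other alternatives these counts were 11 to 17, 12 to 17, 21 to 25, 25 to 29 and 7 to 12. Scaling moved the median of all genes by less than 0.1 on the log2 scale. Under upper-quartile scaling, 770 of 1916 genes called for the difference between intervals were positive, against 993 of 1868 under TMM. Low counts limit MMP19, ADAMTS17, MMP10, MMP25, ADAMTS20 and MMP9 most, the 6 members with the fewest counts over all wells.

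The labels give wells of the 3 days the same numbers without saying what a number marks, so the numbers were not used as pairs in the main fit. Not every same-numbered pair correlated above 0.1, although all 10 were positive. The deviations of the 10 same-numbered pairs from their day means correlated at 0.027 to 0.22 (mean 0.112, 6 over 0.1), and those of the 30 other pairs at -0.16 to 0.17 (mean -0.037, 2 over 0.1). A well correlated best with its own number in 15 of 20 cases, and on every other day for 6 of 11 wells, which is a hint from the data of something shared by number and not part of the design. With the replicate block, 17, 16, 25, 29 and 12 members were called in the 5 tests, against 13, 15, 24, 28 and 8. Of the changes described well by well, the replicate block added calls at Day 60 against Day 30 for LOXL2 (log2 -0.80, adjusted p = 0.0023), TIMP1 (-0.49, adjusted p = 0.012), ADAMTS16 (-1.52, adjusted p = 0.027) and LOXL4 (-0.44, adjusted p = 0.047). It also added ADAMTS7 at Day 113 against Day 60 (0.67, adjusted p = 0.0071) and LOXL2 at Day 113 against Day 30 (-0.47, adjusted p = 0.011). With it TLL2 was not called at Day 60 against Day 30 (adjusted p = 0.072), and the activators and regulators called higher there were 3, against 1. Upper-quartile scaling added ADAMTS10 at Day 113 against Day 60 (-0.46, adjusted p = 0.048).

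Of 47 uncalled changes of these genes, 12 changed sign in some alternative, and the cause was not tested. At Day 60 against Day 30 the replicate block gave -0.20 for ADAMTSL2, -0.021 for MMP10 and -0.34 for MMP19, and limma-voom -0.084 for ADAMTSL2 and -0.75 for MMP19. ADAMTS10 gave 0.0065 with upper-quartile scaling and 0.00017 with the filter of 1 CPM. At Day 113 against Day 60, TIMP2 gave -0.018 with upper-quartile scaling, and ADAMTS8 gave -0.014 with RLE size factors or DESeq2, -0.062 with upper-quartile scaling, -0.018 with the filter of 1 CPM and -0.011 with only the 2 days fitted. Leaving out 1 well, the log2 fold changes at Day 60 against Day 30 ranged over -0.70 to 0.045 for ADAMTS4, -0.11 to 0.0042 for ADAMTS13, -0.28 to 0.40 for ADAMTSL2, -0.38 to 0.53 for MMP10, -0.91 to 0.0075 for MMP1, -1.20 to 0.93 for MMP19 and -0.14 to 0.081 for ADAMTS10. At Day 113 against Day 60 they ranged over -0.082 to 0.46 for ADAMTS16, -0.26 to 0.15 for ADAMTS8 and -0.018 to 0.15 for TIMP2, and at Day 113 against Day 30 over -0.51 to 0.14 for MMP2 and -0.14 to 0.033 for MMP15.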
